A study of Mus musculus with 18 samples.

Results

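The genes described here encode proteins that hold neighbouring endothelial cells together at tight and adherens junctions. They were Cldn5, Ocln, Tjp1, Lsr, F11r, Jam2, Esam, Cdh5 and Pecam1, taken by symbol from the authors' count table, and they made up 9 of its 21638 genes. All 9 had enough counts to be tested. In brain capillaries, tight junctions seal the gap between endothelial cells and so form the physical part of the blood-brain barrier. Claudins and occludin span the membrane, junctional adhesion molecules sit beside them, and the scaffold protein ZO-1 ties the strands to the actin cytoskeleton. Adherens junctions, built on VE-cadherin, lie next to the tight junctions and help to set how firmly the cells are joined.

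The study measured mRNA in endothelial cells sorted from the brain cortex of adult mice as CD31+/CD41-/CD45- cells, in 18 libraries forming 6 groups of 3. Middle cerebral artery occlusion (MCAO) models ischaemic stroke by surgery, and mice with sham surgery were its controls. In 4 groups the mice were labelled wild type (WT) and cells came from the ipsilateral or the contralateral side after sham surgery or MCAO. The other groups were ipsilateral cells after MCAO from mice labelled Hdac2 ECKO or Ezh2 ECKO, which carried floxed Hdac2 or Ezh2 alleles and Cdh5CreERT2. All 18 libraries, wild type included, are labelled as treated with tamoxifen at 75 mg per kg, which the series text describes as 5 doses from day 0 to day 4, with cells taken on day 7. ECKO stands for an endothelial deletion. The labels do not say whether the wild-type mice carried the recombinase.

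The design touches the junction genes themselves at 2 points. Pecam1 encodes CD31, the protein on which the cells were sorted, so its presence in every library follows from the gate. The regulatory sequence of Cdh5 drives the recombinase in the groups labelled ECKO. Whether that construct adds to the Cdh5 counts was not tested. The labels do not say whether replicates were separate mice, or whether both sides came from the same animal, so the p-values measure the spread between these samples, which may in part be technical. In sorted bulk samples, fewer cells of a type and less RNA per cell cannot be told apart.

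Total counts ran from 25791401 to 57576255 per library, and the lowest count of any junction gene in any library was 1760, for Lsr. Summed over 10 endothelial marker genes, the level ran from 12228 to 26972 CPM (counts scaled to the size of each library), and none of them was at 0 in any library. Of the other cell types, summed epithelial markers reached at most 446 CPM in a library, neuronal markers 272 CPM, oligodendrocyte markers 211 CPM and mural markers 173 CPM. Among the epithelial markers, Ttr alone reached 445 CPM, and each of the others at most 1.2 CPM. Microglial markers reached 93.4 CPM, platelet markers 82.4 CPM, leukocyte markers 27.8 CPM and astrocyte markers 21.9 CPM. Red cell genes spanned 70.1 to 297849 CPM and were at 70.1 to 671 CPM in the libraries labelled Ezh2 ECKO. Counts on 1466 olfactory and vomeronasal receptor genes, which endothelial cells are not known to use, served as a measure of background. This background was 152 to 716 CPM in 16 libraries and stood apart in MCAO contralateral replicate 1, at 1889 CPM, and Ezh2 ECKO replicate 2, at 2083 CPM. Hdac2 mRNA did not differ detectably between the libraries labelled Hdac2 ECKO and MCAO ipsilateral libraries (log2 fold change -0.11, SE 0.32, adjusted p = 0.925, edgeR). Ezh2 mRNA was not lower in the libraries labelled Ezh2 ECKO either (log2 fold change 1.05, SE 0.86, adjusted p = 0.485, edgeR). Without knowing which exons are floxed, total gene counts are a weak check of those labels, which are used here as labels only.

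The sequence just before the start of transcription is shown for 3 of the genes because their levels behaved differently across libraries: Cldn5 and F11r varied widely and together, and Ocln varied least. RefSeq promoter windows of build GRCm38.p6 were found for 5 of the 9 genes (Cldn5, Ocln, Tjp1, Lsr and F11r), and none for Jam2, Esam, Cdh5 and Pecam1. Each line gives the 250 bases upstream of the start, 5′ to 3′ on the gene's strand, and capitals mark a match to the GC box letters GGGCGG or to the ETS core letters CAGGAA or CCGGAA on either strand. For Ocln, which has 2 windows, the one beginning at the start used by the count table is shown.
Cldn5: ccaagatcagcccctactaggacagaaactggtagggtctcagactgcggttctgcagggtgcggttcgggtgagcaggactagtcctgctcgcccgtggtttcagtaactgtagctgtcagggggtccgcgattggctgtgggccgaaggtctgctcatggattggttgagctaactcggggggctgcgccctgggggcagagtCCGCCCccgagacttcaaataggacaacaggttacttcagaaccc
F11r: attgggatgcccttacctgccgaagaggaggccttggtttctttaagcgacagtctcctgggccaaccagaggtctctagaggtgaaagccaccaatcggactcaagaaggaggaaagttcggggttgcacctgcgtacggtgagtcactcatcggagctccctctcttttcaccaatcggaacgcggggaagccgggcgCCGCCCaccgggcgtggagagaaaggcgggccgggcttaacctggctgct
Ocln: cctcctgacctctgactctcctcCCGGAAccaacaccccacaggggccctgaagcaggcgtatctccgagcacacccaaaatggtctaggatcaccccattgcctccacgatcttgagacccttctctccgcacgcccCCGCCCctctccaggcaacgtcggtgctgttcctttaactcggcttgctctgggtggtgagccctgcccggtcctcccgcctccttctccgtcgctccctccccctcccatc
The Cldn5 window lies on the plus strand at chr16:18776597-18776846, directly before the first base of the gene in the count table. That of F11r is at chr1:171437311-171437560 on the plus strand, and its start lies 26 bases from that of the count table. The Ocln window is on the minus strand at chr13:100552719-100552968. Each of the 3 held 1 match to GGGCGG, a motif found in 32.7% of 32851 RefSeq windows of this length. Ocln also held 1 match to CCGGAA, present in 12.0% of windows. None of the 3 held CAGGAA or the TATA box letters TATAAA, which occur in 25.7% and 12.4% of windows. They contained 12 (Cldn5), 17 (F11r) and 14 (Ocln) CpG dinucleotides, against a median of 6. The 3 windows thus did not differ in how often they held the GC box letters. A match describes letters in the window and not a bound site.

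Cldn5 was by far the most abundant of the 9 genes per unit of transcript length. It averaged 791 CPM per kilobase (SD 417, n = 18), above 99.6% of the genes tested. Esam followed at 114 CPM per kilobase (SD 46.3) and Ocln at 88.1 (SD 14.1). Jam2, at 73.4 CPM per kilobase (SD 13.5), and Cdh5, at 70.7 (SD 20.4), differed by less than their spread. Tjp1 (56.2, SD 16.6), Pecam1 (53.5, SD 12.7), Lsr (50.2, SD 14.1) and F11r (49.9, SD 17.7) likewise lay within each other's spread on this scale. F11r, the lowest, still lay above 93.6% of tested genes. The genes also differed in how much they varied: the highest library exceeded the lowest by 9.10-fold for Cldn5, 5.19-fold for Esam and 4.03-fold for F11r, but by 1.96-fold for Ocln and 2.05-fold for Jam2 on the CPM scale. Lsr, Tjp1, Cdh5 and Pecam1 fell between these, at 3.51, 3.42, 3.19 and 2.28-fold.

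**Figure D1:**
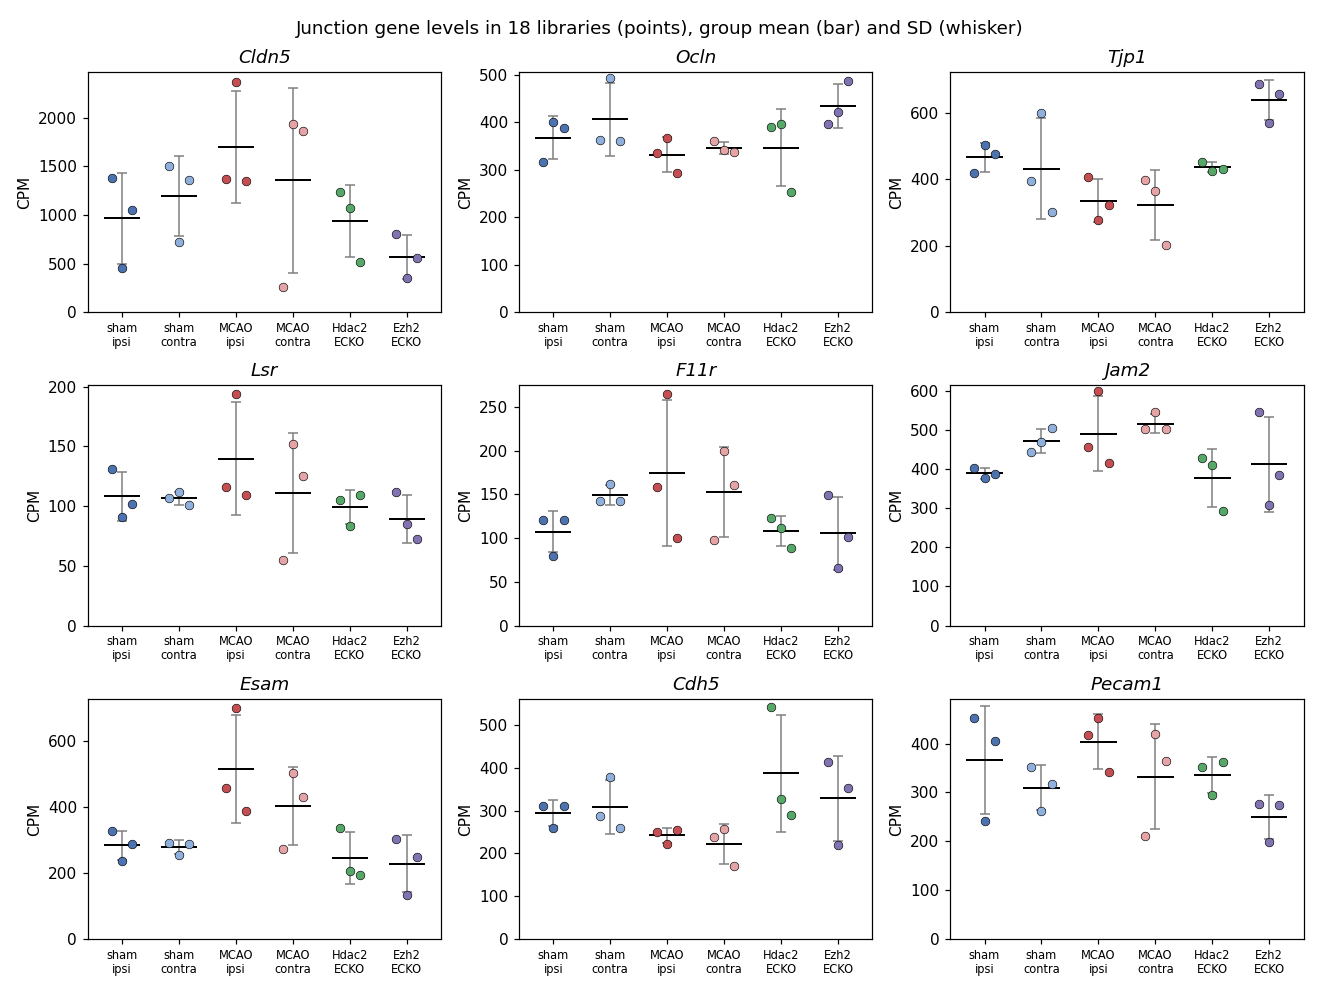
Level of each of the 9 junction genes in CPM (vertical axis, linear, from 0) in the 18 libraries, by group (horizontal axis); points are libraries, black bars are group means and whiskers are SDs (n = 3). The 3 Cldn5 values of MCAO ipsilateral (1353 to 2369 CPM) sit above the 3 of Ezh2 ECKO (349 to 802 CPM), and those of Tjp1 show the opposite order.

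Cldn5 encodes claudin-5, the claudin that closes the endothelial barrier to small molecules. In sham ipsilateral libraries it was at 1385, 456 and 1055 CPM, and in sham contralateral libraries at 1502, 722 and 1357 CPM. In MCAO ipsilateral libraries it was at 1376, 2369 and 1353 CPM, and in MCAO contralateral libraries at 260.4, 1942 and 1866 CPM. The lowest Cldn5 value of all was thus in a contralateral library, MCAO contralateral replicate 1, which also had one of the 2 high backgrounds. The libraries labelled Hdac2 ECKO gave 1233, 1067 and 516 CPM, and those labelled Ezh2 ECKO 802, 349 and 558 CPM. Mean Cldn5 was highest in MCAO ipsilateral (1699 ± 580.1 CPM, SD, n = 3), followed by MCAO contralateral (1356 ± 949.7), sham contralateral (1194 ± 415), sham ipsilateral (965 ± 471), Hdac2 ECKO (939 ± 375) and Ezh2 ECKO (569.6 ± 226). Neighbours in this order overlapped in every case.

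Cldn5 did not pass the test in any comparison. MCAO ipsilateral exceeded sham ipsilateral by 0.82 in log2 fold change (SE 0.56, adjusted p = 0.767, edgeR quasi-likelihood test), with overlapping libraries and a 95% interval of -0.34 to 1.97. Against MCAO ipsilateral, the libraries labelled Hdac2 ECKO differed by -0.86 (log2, SE 0.56, adjusted p = 0.640), and the groups did not overlap. The difference for Ezh2 ECKO had a log2 fold change of -1.58 (SE 0.56, 95% interval -2.75 to -0.40), an unadjusted p of 0.0109 and an adjusted p of 0.138. All 3 of these libraries lay below all 3 of MCAO ipsilateral. With the background level as a covariate this value shrank to -0.39 (adjusted p = 0.646), and without the 2 libraries of highest background it was -1.30 (adjusted p = 0.0926).

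Ocln encodes occludin, a membrane-spanning protein of the tight junction strand. Its 6 group means lay between 332 ± 37.5 CPM in MCAO ipsilateral and 434 ± 46.1 CPM in Ezh2 ECKO (SD, n = 3). In MCAO ipsilateral it was at 336, 367 and 292 CPM. The libraries labelled Ezh2 ECKO gave 397, 420.5 and 486 CPM, all higher, and those labelled Hdac2 ECKO 389, 397 and 253 CPM, which overlapped. Sham ipsilateral libraries gave 316, 400.3 and 387 CPM. The fitted difference of Ezh2 ECKO from MCAO ipsilateral was 0.39 (log2, SE 0.27, adjusted p = 0.416, edgeR), and the remaining differences of Ocln were smaller still, between -0.33 and 0.24.

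Tjp1 encodes ZO-1, the cytoplasmic scaffold that links claudins and occludin to actin. It was at 419, 504 and 476 CPM in sham ipsilateral and at 407, 277 and 324 CPM in MCAO ipsilateral, with all MCAO values below all sham values. The libraries labelled Ezh2 ECKO gave 688, 571 and 657 CPM, and those labelled Hdac2 ECKO 453, 425 and 431 CPM. Both sets lay wholly above MCAO ipsilateral, and the Ezh2 ECKO set also lay wholly above sham ipsilateral and Hdac2 ECKO. The contralateral libraries were more scattered, at 395, 600.3 and 301 CPM after sham surgery and 398, 366 and 201 CPM after MCAO. For Ezh2 ECKO against MCAO ipsilateral the log2 fold change was 0.93 (SE 0.31, 95% interval 0.28 to 1.57, unadjusted p = 0.00716, adjusted p = 0.118, edgeR). DESeq2, run as an alternative, called this difference, with a log2 fold change of 1.11 and an adjusted p of 0.0316. Against sham ipsilateral, MCAO ipsilateral differed by -0.47 (log2, SE 0.31, adjusted p = 0.757, edgeR).

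Lsr encodes the lipolysis-stimulated lipoprotein receptor, or angulin-1, which marks the points where 3 cells meet. It was at 131, 91.3 and 102 CPM in sham ipsilateral, 116, 194 and 109.5 CPM in MCAO ipsilateral and 55.2, 152 and 126 CPM in MCAO contralateral. Hdac2 ECKO libraries gave 106, 83.4 and 109 CPM, just below the lowest MCAO ipsilateral value, and Ezh2 ECKO libraries 111, 84.9 and 72.2 CPM, which overlapped it. Its largest fitted difference was -0.64 (log2, SE 0.35, adjusted p = 0.311, edgeR) for Ezh2 ECKO against MCAO ipsilateral. Of the 2172 exon bases of Lsr, 946 overlap Gm4673, a gene on the opposite strand. The strand setting of the counting is not given in the sources used here, so the Lsr counts may hold reads of that gene.

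F11r, Jam2 and Esam encode related immunoglobulin-type adhesion molecules of the junction (JAM-A, JAM-B and the endothelial cell-selective adhesion molecule). Esam was at 326, 237 and 289.7 CPM in sham ipsilateral and at 459, 700.5 and 389 CPM in MCAO ipsilateral. The Hdac2 ECKO libraries gave 338, 205 and 195 CPM, and the Ezh2 ECKO libraries 304, 135 and 248 CPM. The 3 MCAO ipsilateral libraries were thus above every library of these 3 other ipsilateral groups. Against sham ipsilateral, the log2 fold change of MCAO ipsilateral was 0.86 (SE 0.35, unadjusted p = 0.0216, adjusted p = 0.645, edgeR). Against MCAO ipsilateral, Hdac2 ECKO differed by -1.07 (SE 0.35, unadjusted p = 0.00578, adjusted p = 0.394) and Ezh2 ECKO by -1.17 (SE 0.35, 95% interval -1.90 to -0.45, unadjusted p = 0.00291, adjusted p = 0.0799). These comparisons share the MCAO ipsilateral libraries, whose replicate 2 held the highest Esam value. DESeq2 called Esam for Ezh2 ECKO (log2 fold change -1.02, adjusted p = 0.0280). For Ezh2 ECKO the edgeR value was -0.70 with background as a covariate (adjusted p = 0.207), -0.89 without MCAO ipsilateral replicate 2 (adjusted p = 0.404) and -0.88 without both libraries of highest background (adjusted p = 0.0881). On the contralateral side Esam was at 292, 255 and 289 CPM after sham surgery and at 272, 504 and 431 CPM after MCAO (log2 fold change 0.53, SE 0.35, adjusted p = 0.920, edgeR).

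F11r was at 121, 80.2 and 121 CPM in sham ipsilateral and 159, 265 and 101 CPM in MCAO ipsilateral, which overlapped. Hdac2 ECKO libraries gave 124, 111 and 89.2 CPM, and Ezh2 ECKO libraries 149, 65.7 and 102 CPM. The log2 fold changes were 0.70 for MCAO against sham ipsilateral (SE 0.37, adjusted p = 0.717, edgeR), -0.69 for Hdac2 ECKO and -0.73 for Ezh2 ECKO against MCAO ipsilateral (SE 0.37 for both). Without MCAO ipsilateral replicate 2, the library of highest F11r, they were 0.27, -0.26 and -0.30, and with background as a covariate 0.34, -0.45 and -0.22. All 3 ipsilateral sham values lay below the 3 contralateral ones, at 142, 162 and 143 CPM. Jam2 was steadier: sham ipsilateral libraries gave 403, 377 and 389 CPM and MCAO ipsilateral libraries 458, 599 and 416 CPM, without overlap. The Hdac2 ECKO libraries were at 428, 411 and 293 CPM and the Ezh2 ECKO libraries at 546, 308 and 384 CPM. The largest fitted Jam2 difference in size was the log2 fold change of -0.38 for Hdac2 ECKO against MCAO ipsilateral (SE 0.28, adjusted p = 0.690).

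Cdh5 encodes VE-cadherin, the adhesive core of the endothelial adherens junction. It was at 311, 259 and 311 CPM in sham ipsilateral and 249, 221 and 255 CPM in MCAO ipsilateral, without overlap (log2 fold change -0.28, SE 0.31, adjusted p = 0.839, edgeR). The libraries labelled Hdac2 ECKO gave 542, 328 and 289.9 CPM, all above MCAO ipsilateral, with 1 library well above the others. Their log2 fold change was 0.68 (SE 0.31, unadjusted p = 0.0419, adjusted p = 0.496), and it lay between 0.31 and 0.80 over the 13 alternative settings. Ezh2 ECKO libraries gave 413, 219.9 and 354 CPM and overlapped MCAO ipsilateral (0.44, SE 0.31, adjusted p = 0.420). Contralateral values were 286, 379 and 258 CPM after sham surgery and 239, 258 and 170.3 CPM after MCAO, a difference of -0.47 (log2, SE 0.31, adjusted p = 0.920) that was the lowest of the 9 genes in that comparison.

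Pecam1 encodes CD31, an adhesion receptor of the lateral cell border. It was at 453, 243 and 406 CPM in sham ipsilateral, 418, 452 and 342 CPM in MCAO ipsilateral and 352, 294 and 362 CPM in Hdac2 ECKO libraries, with overlap between these groups. The libraries labelled Ezh2 ECKO gave 276, 198 and 275 CPM, all below MCAO ipsilateral. This difference had a log2 fold change of -0.69 (SE 0.31, unadjusted p = 0.0370, adjusted p = 0.229, edgeR). Since cells were gated on the CD31 protein, Pecam1 levels describe cells already chosen for its product.

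**Figure D2:**
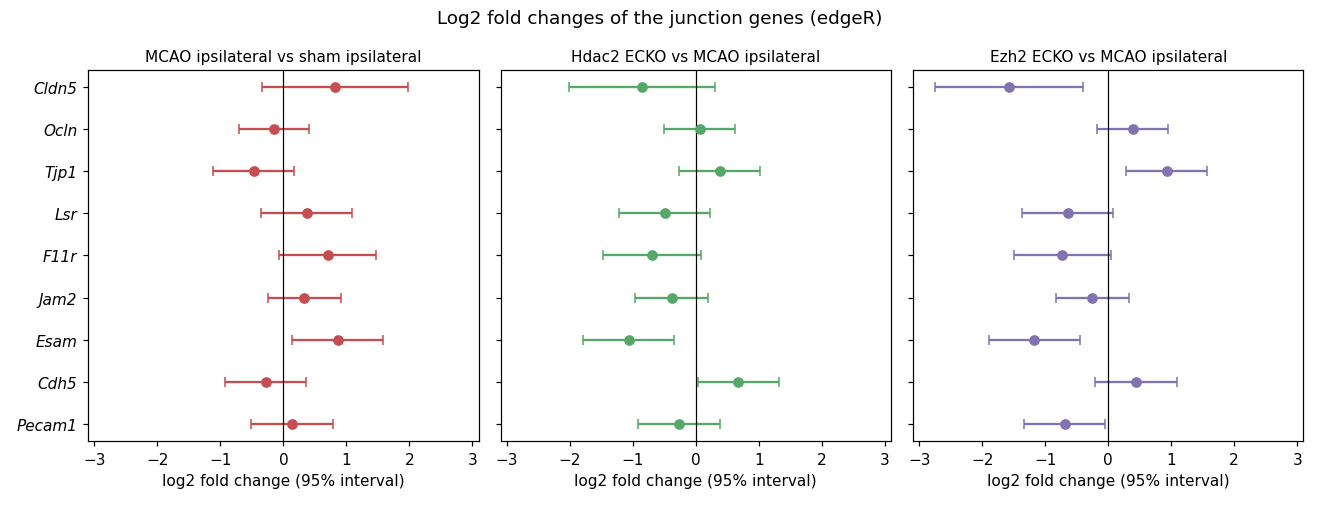
Log2 fold change (horizontal axis) of each junction gene (vertical axis) in 3 comparisons; points are edgeR estimates and bars are 95% intervals. In the Ezh2 ECKO panel the intervals of Cldn5, Esam and Pecam1 lie below 0 and that of Tjp1 above 0, before adjustment over all genes.

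Read as a list, 0 of the 9 junction genes passed an adjusted p of 0.05 in any of the 10 comparisons by edgeR. For MCAO ipsilateral against sham ipsilateral, 0% of all tested genes passed as well. At an unadjusted p under 0.05, 1 of the 9 genes (Esam) stood beside 7.08% of all genes, and DESeq2 called 0 of the 9 and 0.531% of the genes it tested. There, 4 of 9 genes did not overlap (Jam2 and Esam higher, Tjp1 and Cdh5 lower), against 27.7% of all genes. The median of the 9 log2 fold changes was 0.33, against 0.12 over the 7814 genes of at least 10 CPM. Marker sums also separated these groups: the 10 endothelial markers were at 15075 to 15300.5 CPM in sham and 18766 to 26972 CPM in MCAO, the 6 microglial markers at 34.1 to 43.3 and 76.4 to 85.4 CPM, and the 5 neuronal markers at 57.2 to 111 and 127 to 183 CPM. The 8 mural markers were at 97.3 CPM or above in sham and at 88.7 CPM or below in MCAO. Of the single endothelial markers, 4 had log2 fold changes above 0 and 6 below. Among these 10 markers, 5 had an unadjusted p under 0.05 by edgeR and 6 did not overlap, 4 higher and 2 lower. Most neuronal markers went against their sum, with 1 above 0, 4 below and a median of -0.74. Stmn2 averaged 140 CPM over all libraries, and each of the other neuronal markers at most 1.02 CPM. All 5 tested microglial markers were above 0, and of the mural markers 1 was above and 7 below. None of these markers was called by edgeR, and up to 2 microglial, 2 neuronal and 3 mural markers were at 0 in a library of these groups. Their part in the junction gene values was not tested. The values of Cldn5, Esam and F11r were above 0 with each scaling, but scaling by unadjusted library totals put the mean of MCAO ipsilateral below that of sham ipsilateral for Jam2 (469.7 and 475 CPM) and Pecam1 (388 and 446 CPM).

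For Hdac2 ECKO against MCAO ipsilateral, 0.0117% of all genes passed the adjusted threshold by edgeR. None of the 9 did, 2 of them (Esam and Cdh5) had an unadjusted p under 0.05 against 9.85% of all genes, and DESeq2 called 0 of 9 and 1.66% of all genes. Without overlap were 5 of 9 genes, with Tjp1 and Cdh5 higher and Cldn5, Lsr and Esam lower, against 19.9% of all genes. The median log2 fold change was -0.38, against 0.01 over genes of at least 10 CPM. The endothelial markers summed to 15072 to 17648.5 CPM in Hdac2 ECKO, below the 18766 to 26972 CPM of MCAO ipsilateral. Taken singly, 5 of these markers had log2 fold changes above 0 and 5 below, with a median of -0.02. Of these 10 markers, 6 had an unadjusted p under 0.05 by edgeR and 6 did not overlap, 3 higher and 3 lower. The red cell genes summed to 49294 to 297849 CPM against 38267 to 65445 CPM, with 4 of 5 at an unadjusted p under 0.05, 0 of 5 called by edgeR and a median log2 fold change of 1.90. Their part in the junction gene values was not tested here either. Ocln, at 0.06, changed sign when library totals were left unadjusted (282 CPM in Hdac2 ECKO and 319 CPM in MCAO ipsilateral).

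For Ezh2 ECKO against MCAO ipsilateral, 250 genes or 1.46% of those tested passed by edgeR and 0 of the 9 junction genes did. At an unadjusted p under 0.05 there were 4 of the 9 (Cldn5, Tjp1, Esam and Pecam1), against 19.2% of all genes. Those without overlap were 5 of 9, with Ocln and Tjp1 higher and Cldn5, Esam and Pecam1 lower, against 29% of all genes. DESeq2 called 2 of the 9, Tjp1 and Esam, against 10.3% of the genes it tested. The median log2 fold change was -0.64, against -0.06 over genes of at least 10 CPM. Red cell genes differed in these same libraries: they summed to 38267 to 65445 CPM in MCAO ipsilateral and to 70.1 to 671 CPM in Ezh2 ECKO, and all 5 fell by the adjusted test, with only Alas2 at 0 and only in 1 Ezh2 ECKO library. Their part in the junction gene values was not tested. In the same groups the endothelial markers summed to 18766 to 26972 and 12228 to 14332 CPM, the microglial markers to 76.4 to 85.4 and 48.1 to 60.5 CPM, and the neuronal markers to 127 to 183 and 48.1 to 78.7 CPM. Single markers did not all follow these sums. Log2 fold changes were above 0 for 5 endothelial markers and below for 5 (median -0.08), with 1 called lower. Of these 10 markers, 7 had an unadjusted p under 0.05 by edgeR and 9 did not overlap, 4 higher and 5 lower. Of the neuronal markers 3 were above 0 and 2 below (median 0.57), and of the microglial markers 1 and 4. Ly6c1 averaged 8816 CPM and Stmn2 140 CPM over all libraries, the highest of the endothelial and neuronal markers.

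Set directly against each other, Hdac2 ECKO and Ezh2 ECKO differed for 0.123% of all genes by edgeR and for 0 of the 9 junction genes. No junction gene had an unadjusted p under 0.05, against 11.2% of all genes, and DESeq2 called 0 of the 9 and 4.72% of all genes. The fitted differences ran from -0.55 for Tjp1 (SE 0.31, adjusted p = 0.538), lower in Hdac2 ECKO, to 0.72 for Cldn5 (SE 0.55, adjusted p = 0.694). In 2 of 9 genes the groups did not overlap, with Pecam1 higher and Tjp1 lower in Hdac2 ECKO, against 12.1% of all genes. Measured against sham ipsilateral, which these comparisons share with MCAO ipsilateral, 0 of 9 genes passed by edgeR for Hdac2 ECKO (0% of all genes) and 0 of 9 for Ezh2 ECKO (0.041%). None of the 9 had an unadjusted p under 0.05 there, against 7.14% and 6.52% of all genes, and DESeq2 called 0 of 9 in both, with 1.64% and 1.44% of all genes. For Hdac2 ECKO the values ran from -0.21 (Esam) to 0.40 (Cdh5), where unadjusted library totals put Cdh5 lower in Hdac2 ECKO (312 CPM) than in sham ipsilateral (358 CPM). For Ezh2 ECKO they ran from -0.76 (Cldn5) to 0.45 (Tjp1). Without overlap with sham ipsilateral were 0 of 9 genes for Hdac2 ECKO, against 15.3% of all genes. For Ezh2 ECKO it was 1 of 9, Tjp1, which was higher, against 13.7%.

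Between the sides of sham brains, the fitted values ran from -0.48 (F11r) to 0.24 (Pecam1), and unadjusted library totals turned the order of the mean levels of Cldn5, Ocln, Jam2 and Cdh5. Between the sides of MCAO brains they ran from -0.07 (Jam2) to 0.36 (Esam). On the contralateral side, MCAO differed from sham surgery by -0.47 (Cdh5) to 0.53 (Esam). The side difference in MCAO minus that in sham, an interaction term, ran from -0.05 (Tjp1) to 0.67 (F11r, SE 0.52, adjusted p = 0.941, edgeR). In each of these 4 comparisons 0% of all genes and 0 of the 9 passed by edgeR. DESeq2 called 0 of the 9 in each, and of all genes 0.0353% between the sides of sham brains, between the sides of MCAO brains and for the interaction, and 0.159% for the contralateral comparison. An unadjusted p under 0.05 was reached by 0 of 9 genes in all 4, against 1.85% of all genes between sham sides, 3.08% between MCAO sides, 4.41% for the contralateral comparison and 3.38% for the interaction. The sham sides did not overlap for 2 of 9 genes, F11r and Jam2, both lower on the ipsilateral side, against 15.4% of all genes. Without overlap were 0 of 9 between MCAO sides (5.37% of all genes) and 1 of 9, Cdh5, in the contralateral comparison (9.65%).

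The 9 genes did not vary as a single block over the 18 libraries. Cldn5, Lsr, F11r, Jam2, Esam and Pecam1 were positively correlated with each other on the log2(CPM + 1) scale in all pairs, most closely Cldn5 with Pecam1 (Pearson r = 0.84, Spearman rho = 0.81, permutation p = 4e-05, adjusted over 36 pairs 0.00048). F11r and Esam were as close (r = 0.84, rho = 0.73, permutation p = 3e-05, adjusted 0.00048), while Jam2 and Pecam1 were only loosely related (r = 0.27, rho = 0.23, permutation p = 0.272, adjusted 0.377). Tjp1 instead varied with Cdh5 (r = 0.65, rho = 0.66, permutation p = 0.00335, adjusted 0.010) and opposite to Cldn5 (r = -0.61, rho = -0.71, permutation p = 0.00759, adjusted 0.0195). After dropping the 2 libraries most distant from the first gene's median, the r values were 0.73 for Cldn5 with Pecam1, 0.66 for F11r with Esam, 0.43 for Tjp1 with Cdh5 and -0.73 for Cldn5 with Tjp1. With group means removed, these r values were 0.84, 0.89, 0.60 and -0.49. The labels name no batch.

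**Figure D3:**
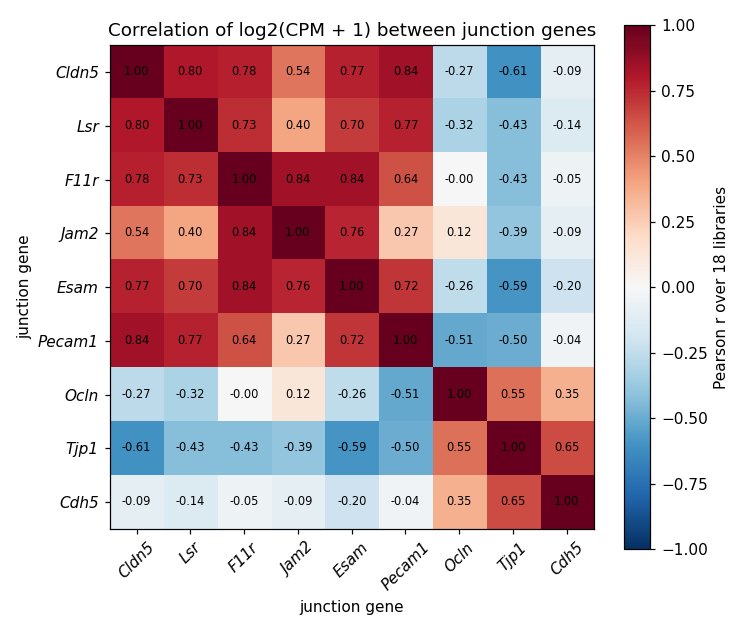
Pearson r of log2(CPM + 1) over 18 libraries for each pair of junction genes (both axes), from -1 (blue) to 1 (red). The block of Cldn5, Lsr, F11r, Jam2, Esam and Pecam1 is positive throughout (0.27 to 0.84), while Tjp1 is negative with each of these 6 genes.

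Levels were also related to the background of the library. How many of all genes were so related was not computed, so the relation is not shown to be particular to junction genes. Cldn5 was lower where background was higher, on log scales (r = -0.93, rho = -0.89, permutation p = 1e-05, the smallest that 100000 resamples can give, adjusted over 9 genes 9e-05). F11r (r = -0.81, rho = -0.83, adjusted permutation p = 0.000225), Lsr (r = -0.76, rho = -0.70, adjusted 0.000405), Pecam1 (r = -0.76, rho = -0.67, adjusted 0.000405), Esam (r = -0.74, rho = -0.84, adjusted 0.000702) and Jam2 (r = -0.60, rho = -0.70, adjusted 0.0127) were also negatively related. Tjp1 was positively related (r = 0.49, rho = 0.60, adjusted permutation p for r 0.0542), and Ocln (r = 0.18, rho = 0.34, adjusted 0.540) and Cdh5 (r = -0.11, rho = 0.10, adjusted 0.668) showed no detectable relation. Without the 2 libraries of highest background, r was -0.90 for Cldn5, -0.82 for F11r, -0.67 for Lsr, -0.50 for Pecam1, -0.77 for Esam, -0.82 for Jam2, 0.63 for Tjp1, 0.11 for Ocln and 0.25 for Cdh5. Within groups, after removal of group means, it was -0.93 for Cldn5, -0.88 for Esam and 0.34 for Tjp1. MCAO ipsilateral libraries had backgrounds of 242, 154 and 296 CPM, sham ipsilateral libraries 285, 716 and 463 CPM, Hdac2 ECKO libraries 198, 325 and 639 CPM, and Ezh2 ECKO libraries 268, 2083 and 600.1 CPM. With background as a covariate, the log2 fold change of Cldn5 between MCAO and sham ipsilateral was 0.14 in place of 0.82, and that of Esam 0.52 in place of 0.86.

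**Figure D4:**
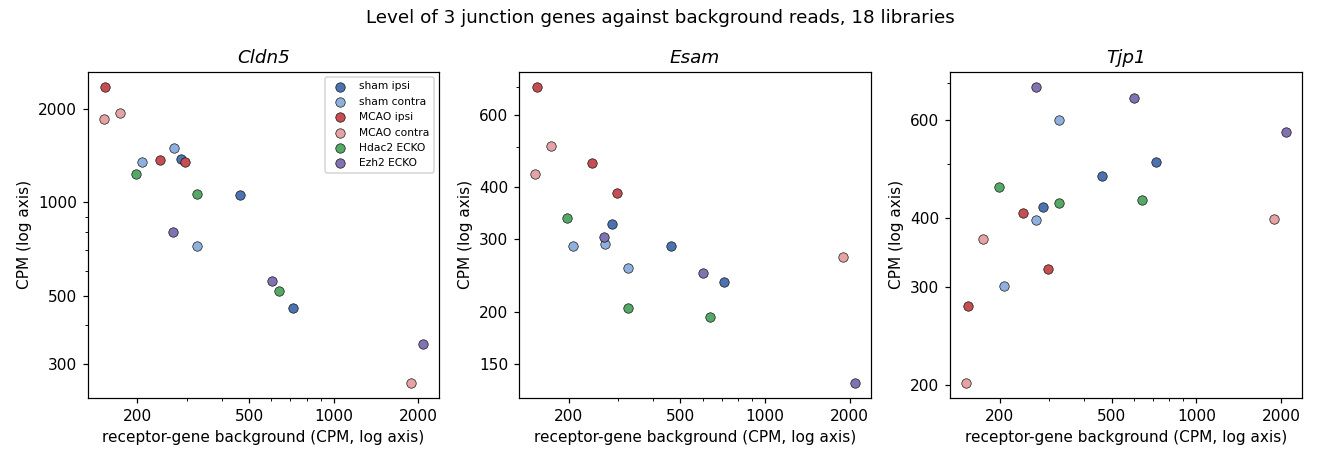
Level of Cldn5, Esam and Tjp1 (vertical axis, CPM, log scale) against the summed level of olfactory and vomeronasal receptor genes (horizontal axis, CPM, log scale); each point is 1 of 18 libraries, coloured by group. Cldn5 and Esam are lower where background is higher (r = -0.93 and -0.74), and Tjp1 is not (r = 0.49).

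The junction genes also differed in transcript length. Cldn5 (1416 bases), Lsr (2172), F11r (2663) and Esam (2867) are shorter than 3000 bases, and Cdh5 (4203), Ocln (4222), Jam2 (6045), Pecam1 (6228) and Tjp1 (7811) are longer. For MCAO against sham ipsilateral the 4 shorter genes had a median log2 fold change of 0.76 and the 5 longer ones -0.15. All 2095 genes under 3000 bases and of at least 10 CPM had a median of 0.63, and the 5719 longer ones -0.08. For Ezh2 ECKO against MCAO ipsilateral the medians were -0.95 for the 4 shorter and 0.39 for the 5 longer junction genes, and -0.70 and 0.13 for all shorter and longer genes. For Hdac2 ECKO they were -0.78 and 0.06, against -0.24 and 0.07. Across all 7814 genes, fold change and length had a Spearman rho of -0.58 for MCAO against sham ipsilateral, 0.24 for Hdac2 ECKO and 0.45 for Ezh2 ECKO. With GC content, known for 7751 of them, rho was 0.29, -0.33 and -0.44. These comparisons share the MCAO ipsilateral libraries, which enter the deletion comparisons with the opposite sign. Against sham ipsilateral, rho with length was -0.35 for Hdac2 ECKO and 0.09 for Ezh2 ECKO, and with GC content -0.07 and -0.40. All of these are correlations across genes, which are not independent replicates. The part of length or GC content in the values of single junction genes was not tested.

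**Figure D5:**
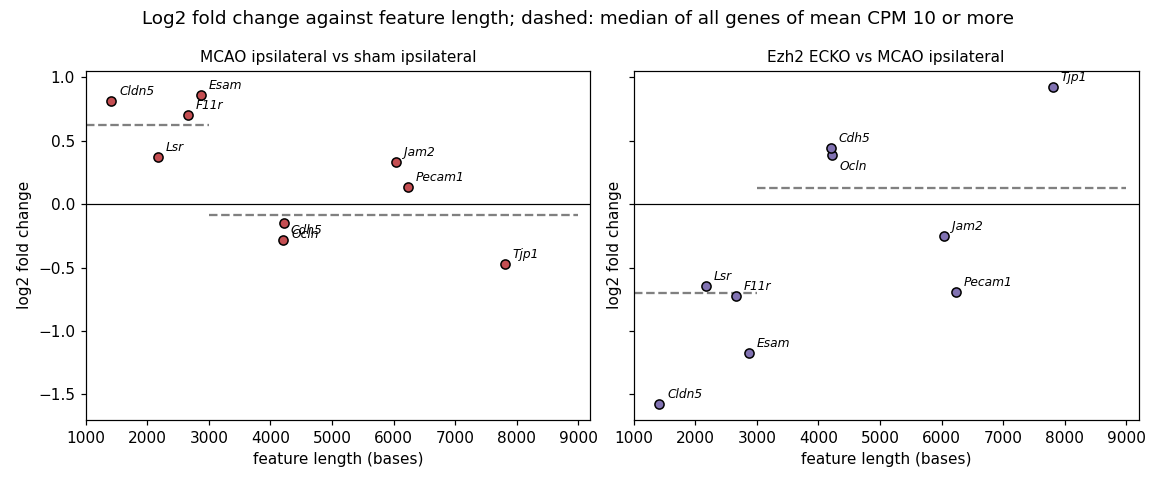
Log2 fold change (vertical axis) against feature length in bases (horizontal axis) for the 9 junction genes in 2 comparisons; dashed lines are the medians of all genes of at least 10 CPM shorter and longer than 3000 bases. The 4 shorter genes lie above 0 after MCAO (dashed line at 0.63) and below 0 in Ezh2 ECKO (dashed line at -0.70). Both panels use the same MCAO ipsilateral libraries, with opposite sign.

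The ratio of Cldn5 to Tjp1 counts within a library, which does not depend on scaling, was chosen after these values had been seen and is given as a description, with no test. It was 3.31, 0.904 and 2.22 in sham ipsilateral and 3.38, 8.55 and 4.18 in MCAO ipsilateral. In Hdac2 ECKO it was 2.72, 2.51 and 1.20, and in Ezh2 ECKO 1.16, 0.611 and 0.849. The 3 groups of occluded ipsilateral cortex did not overlap with each other, with wild type highest and Ezh2 ECKO lowest. Contralateral libraries gave 3.80, 1.20 and 4.51 after sham surgery and 0.654, 5.30 and 9.26 after MCAO. The wild-type values of 0.904 and 0.654 thus lay within the Ezh2 ECKO range. Pearson r with background was -0.93 for Cldn5 and 0.49 for Tjp1. Cldn5 is also the shortest of the 9 genes (1416 bases) and Tjp1 the longest (7811 bases). Across all 7814 genes of at least 10 CPM, fold change and length had a Spearman rho of -0.58 for MCAO against sham ipsilateral. Against MCAO ipsilateral, this rho was 0.24 for Hdac2 ECKO and 0.45 for Ezh2 ECKO. The part of background or length in the ratio was not tested. The share of other gene pairs without overlap was not computed. A ratio shows unequal levels of the pair, not which of them differed.

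Among 38 further genes of the junction, listed by role with earlier results of these data known, 35 could be tested. Only the comparison of Ezh2 ECKO with MCAO ipsilateral gave calls by edgeR, 1 higher and 1 lower, where 1.46% of all genes were called. Ctnnb1, which encodes β-catenin, the cytoplasmic partner of VE-cadherin, rose from 612, 464 and 851 CPM to 1883, 1287 and 2032 CPM (log2 fold change 1.43, SE 0.31, adjusted p = 0.0324). Icam2, an adhesion receptor of endothelial contacts, fell from 337, 466 and 186 CPM to 71.8, 43.0 and 45.6 CPM (log2 fold change -2.62, SE 0.62, adjusted p = 0.0426). With libraries left out in turn the log2 fold change stayed between 1.24 and 1.65 for Ctnnb1 and between -2.95 and -2.29 for Icam2, but several omissions ended the calls. The adjusted p of Ctnnb1 rose above 0.05 without MCAO ipsilateral replicate 1 (0.110), replicate 2 (0.206), Ezh2 ECKO replicate 1 (0.0534) or Ezh2 ECKO replicate 3 (0.118). That of Icam2 did so without MCAO ipsilateral replicate 1 (0.105) or 2 (0.212), or Ezh2 ECKO replicate 1 (0.0577), 2 (0.112) or 3 (0.140). With background as a covariate the log2 fold change was 1.43 for Ctnnb1 (adjusted p = 0.0679) and -1.42 for Icam2 (adjusted p = 0.242), and without both libraries of highest background 1.63 (adjusted p = 0.0118) and -2.47 (adjusted p = 0.0156). DESeq2 called both genes (adjusted p = 0.000271 and 0.00275). In this comparison 26 of the 35 log2 fold changes were above 0 and 9 below, with a median of 0.39. The median was 0.17 over all genes tested and -0.06 over those of at least 10 CPM. For MCAO against sham ipsilateral, which shares the MCAO ipsilateral libraries, 8 of the 35 were above 0 and 27 below. Their median there was -0.37, against -0.09 over all genes tested and 0.12 over those of at least 10 CPM.

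In the other comparisons none of the 35 passed by edgeR, and the pair of genes with the smallest unadjusted p is given. For MCAO against sham ipsilateral these were Ctnnb1 (log2 fold change -0.98, SE 0.31, unadjusted p = 0.00489) and Icam2 (1.21, SE 0.60, unadjusted p = 0.0547). Sham ipsilateral libraries held 1007, 1357 and 1425 CPM of Ctnnb1, all above MCAO ipsilateral. For Hdac2 ECKO against MCAO ipsilateral they were Ctnnb1 (0.99, SE 0.31, unadjusted p = 0.00434), with 1473, 1181 and 1177 CPM in Hdac2 ECKO, and Patj, which encodes a tight junction plaque protein (-2.64, SE 0.86, unadjusted p = 0.00554). Patj was rare, with group means of 0.712 CPM in Hdac2 ECKO and 4.46 CPM in MCAO ipsilateral. Between Hdac2 ECKO and Ezh2 ECKO they were Icam2 (1.81, unadjusted p = 0.00708) and the scaffold gene Magi3 (-1.21, unadjusted p = 0.00712). On the contralateral side, MCAO against sham surgery gave Cdh2, the N-cadherin gene (-1.95, unadjusted p = 0.00177), and Ctnnb1 (-0.92, unadjusted p = 0.00728). Against sham ipsilateral, Hdac2 ECKO gave Patj (-2.42, unadjusted p = 0.00939) and Cldn11 (5.34, unadjusted p = 0.0294), and Ezh2 ECKO gave Icam2 (-1.41, unadjusted p = 0.0283) and Magi3 (0.76, unadjusted p = 0.0711). The comparisons of sides gave Cldn11 (-3.84, unadjusted p = 0.0896) and Cgn (3.27, unadjusted p = 0.116) in sham, Cldn11 (-6.50, unadjusted p = 0.0143) and Cdh2 (1.18, unadjusted p = 0.0392) in MCAO, and Cgn (-6.21, unadjusted p = 0.0348) and Jup (0.95, unadjusted p = 0.124) for the interaction. Cldn11 and Cgn averaged at most 1.70 CPM in any group and were at 0 in some libraries, so their fitted values depend on the prior count of the fit.

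The genes whose pattern over the 18 libraries was most like the mean of the 9 standardised junction gene levels were Itm2c (r = 0.90), Crtap (0.89), Fam166a (0.88), Clta (0.87) and Klf13 (0.87), out of 7805 candidates. Of the 9 genes, F11r was closest to the mean of the other 8 (r = 0.84), and Tjp1 ran against it (r = -0.34). For Cldn5 alone the nearest gene was Ctsa (r = 0.98), and Pecam1, the nearest junction gene, stood at rank 475. Tjp1 was nearest to Rapgef4 (r = 0.93).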

How the data were processed

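The 9 genes, the further junction genes and the marker lists were chosen with earlier results of these data known. Per the labels' protocols, libraries came from a SMART-Seq PLUS kit, and sequencing on a NovaSeq X Plus was paired-end with 150 cycles. The submitters' processing notes name genome build mm10, FastQC, cutadapt, STAR, featureCounts and DESeq2, with no role or order. The deposited table holds counts per gene. Its name calls them normalized, but the values are whole numbers whose totals differ between libraries, and 77.3% to 89.4% of the values from 1 to 20 are even. They were used as unscaled counts, and whether the authors had scaled them is not known. Columns were matched to samples by name, and 0 columns were without a sample. The table's start positions matched GENCODE M21 on GRCm38 for 21339 of 21638 genes.

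The 17094 genes reaching 10 counts or more in 3 or more libraries were tested. One edgeR 4.0.16 quasi-likelihood model with 6 group means was fitted to all 18 libraries with TMM scaling in R 4.3.3 (limma 3.58.1), and p-values were adjusted by the Benjamini-Hochberg method over all tested genes, with a gene called under 0.05. The common biological coefficient of variation was 0.774. CPM values are TMM-scaled, except those of the background and those given for unadjusted library totals, which were scaled by library totals only. Log levels of genes used a pseudocount of 1, and errors after ± are SDs. Each SE was derived from the log2 fold change and its F statistic. Intervals of 95% come from this SE and the residual plus prior degrees of freedom. The script was tested on simulated counts. Permutation tests of correlations drew 1e+05 resamples and were two-sided. Figures were drawn with matplotlib 3.10.9.

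Named were all 9 genes, up to 4 called genes of smallest adjusted p per comparison among the 38 further genes (or the 2 of smallest unadjusted p where none was called), the 5 genes of at least 10 CPM nearest in pattern, and Hdac2 and Ezh2 as a check of the labels. Alternatives were RLE scaling, DESeq2 1.42.0, no low-count filter, only the groups compared, a replicate block, background as a covariate, and each library left out in turn. Leaving out both libraries of highest background was added after seeing the data.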

Additional observations from a re-analysis of the deposited data

How the results depend on the processing

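No junction gene was called under any alternative except with DESeq2 in Ezh2 ECKO against MCAO ipsilateral, which called 2 (Tjp1 and Esam). The number of all genes called moved far more. With DESeq2 it was 6 between sham sides, 71 for MCAO against sham ipsilateral, 26 for MCAO against sham contralateral, 6 between MCAO sides, 6 for the interaction, 239 and 1617 for Hdac2 ECKO and Ezh2 ECKO against MCAO ipsilateral, 647 between them, and 236 and 193 for them against sham ipsilateral. The edgeR counts were 0, 0, 0, 0, 0, 2, 250, 21, 0 and 7 in that order. RLE scaling gave 4 genes for Hdac2 ECKO against MCAO ipsilateral and 2 against sham ipsilateral. Without the low-count filter there were 2 for MCAO against sham ipsilateral, 38 between the deletions and 1 for Hdac2 ECKO against sham ipsilateral. Fitting only the groups compared gave 74 for MCAO against sham ipsilateral, 1 for the interaction, 0 and 485 for Hdac2 ECKO and Ezh2 ECKO against MCAO ipsilateral, and 8 for Hdac2 ECKO against sham ipsilateral. With background as a covariate there were 1 for MCAO against sham ipsilateral, 10 and 13 for Hdac2 ECKO and Ezh2 ECKO against MCAO ipsilateral, 54 between them, and 6 and 12 for them against sham ipsilateral. Leaving out both libraries of highest background gave 13 for MCAO against sham ipsilateral, 1 for the contralateral comparison, 62 and 1000 against MCAO ipsilateral, 115 between the deletions, and 45 and 26 against sham ipsilateral. The cause of these shifts was not tested.

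The replicate block lowered the calls for Ezh2 ECKO against MCAO ipsilateral from 250 to 12 and those between the deletions from 21 to 9, and moved no other count of calls by over 1.5 times. Same-numbered libraries did not deviate together in all 3 numbers of any comparison: the correlations of deviations were -0.08, -0.16 and 0.09 for MCAO against sham ipsilateral and 0.00, -0.09 and 0.04 for Ezh2 ECKO against MCAO ipsilateral, so the numbers were not treated as pairs. With the replicate block Ctnnb1 and Icam2 were no longer called for Ezh2 ECKO against MCAO ipsilateral (1.44, adjusted p = 0.0601, and -2.64, adjusted p = 0.0706).

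With each library left out in turn, the calls ranged from 5 (without MCAO ipsilateral replicate 1) to 298 for Ezh2 ECKO and from 0 (the same library) to 18 (without MCAO ipsilateral replicate 3) for Hdac2 ECKO against MCAO ipsilateral, from 9 (without Ezh2 ECKO replicate 3) to 73 (without Ezh2 ECKO replicate 1) between the deletions, from 3 to 15 (without the same libraries) for Ezh2 ECKO against sham ipsilateral, and from 0 to 1 (without MCAO contralateral replicate 1) for the contralateral comparison.

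The direction of each junction gene in the 3 ipsilateral comparisons against MCAO or sham was the same in all 13 settings, except Ocln in Hdac2 ECKO and Pecam1 after MCAO, each in 10 of 13. Pecam1 after MCAO was -0.000774 with no filter, -0.0797 with the covariate and -0.0898 to 0.345 with a library left out. Ocln in Hdac2 ECKO ran from -0.10 to 0.20. The interaction for Tjp1 turned to 0.10 with the covariate, to 0.12 without both libraries of highest background, and ran from -0.36 to 0.18 with a library left out. Jam2 between MCAO sides ran from -0.242 to 0.0522, and Cldn5 between the deletions was -0.0543 with the covariate. With 3 libraries per group the 95% intervals of the junction genes were wide, so smaller differences were not detectable.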
